A study of Mus musculus with 24 samples.

Results

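The extracellular matrix and cell adhesion genes were followed in mouse embryos after a heat shock. A gene was counted as a member when its symbol stood for a collagen, laminin, nidogen, fibrillin, fibulin, thrombospondin, integrin, cadherin, protocadherin, Timp, Mmp, Adam or Adamts protein, or for a Lox, Plod, P3h or P4ha enzyme of collagen. Fn1, Sparc, Hspg2, Tnc, Vcan, Serpinh1, Cd24a and Esam were added by name. This rule found 76 genes on 101 probes, among 6970 genes on 9684 probes that carry exactly 1 symbol. Slide type 1 held 35 of them on 40 probes, slide type 2 held 47 on 61 probes, and 6 genes were on both. A further 5 probes of slide type 1 and 6 of slide type 2 carry a member's symbol beside another symbol and were left out. No fibrillin, thrombospondin or lysyl oxidase gene was among them.

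The extracellular matrix is the protein scaffold that cells secrete and live in. Fibrillar collagens give it tensile strength, while laminins, type IV collagen, nidogens and perlecan form the basement membranes beneath epithelia and around vessels. Collagen chains are hydroxylated and folded in the endoplasmic reticulum before secretion, and metalloproteases and their inhibitors set how fast the matrix is cut. Integrins tie cells to the matrix and cadherins tie cells to each other, which holds embryonic tissues together as they move and fold.

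The heat-shocked embryos spent 15 min at 43 °C and then recovered for 1 h in culture at 37 °C, and the control embryos stayed at 37 °C throughout. The sources used here give neither strain nor stage. Total RNA of both was compared on 24 arrays with 2 channels, from 3 numbered treatments, with 4 arrays per treatment on each of 2 slide types that carry different probes. On 2 of these 4 arrays the heat-shocked RNA was in channel 1 and on the other 2 in channel 2. The labels do not say whether the treatments came from separate litters or cultures, so a p-value here speaks only of the spread between these 3 treatments. The limma test used below also draws each gene's variance toward that of the other genes. Its p-values therefore do not rest on the SD printed beside a mean alone, and a gene with a wide SD can pass. The number of arrays limits the precision.

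Each value is a log ratio of heat-shocked to control RNA, coded as channel 1 over channel 2 with the sign turned on arrays with the heat-shocked RNA in channel 2, relative to the array's median. The sources used here do not give the channel in the numerator, so values are described by side. The positive side is the one that held the heat shock protein genes Hsph1, at 2.28 ± 0.50 (SD, n = 3 treatments) on slide type 1, and Hspb1, at 2.23 ± 0.050 on slide type 2, each positive on all 12 arrays. The log base is not given either, and 1 unit stands for 2-fold if it is base 2 and for 2.72-fold if it is natural. Over all probes, treatment means correlated at 0.70 to 0.80 on slide type 1, and slide type 2 gave 0.82 to 0.90. The 2 channel orders of a treatment correlated less, at 0.15, 0.07 and 0.52 on slide type 1 and at 0.32, −0.65 and −0.04 on slide type 2. Single arrays of the same channel order correlated as low as 0.29 on slide type 1 and −0.34 on slide type 2. With the numerator not stated, the labels alone do not settle the direction. If every sign is turned, Hsph1 and Hspb1 become negative along with it. The positive and negative counts below then change places, and no call is gained or lost. A ratio gives no level, so the tissue could not be checked by how abundant its marker RNAs were.

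On slide type 2, 16 of the 47 matrix and adhesion genes passed the test on the negative side and 7 on the positive side (limma, Benjamini-Hochberg adjusted p under 0.05 over all 4075 genes). Of all genes, 31.9% were called negative and 18.5% positive, against 34.0% and 14.9% of the members; on either side together it was 50.4% of all genes and 48.9% of members. On slide type 1, 3 of 35 members were negative and 1 was positive, or 8.57% and 2.86%, where 5.65% and 5.73% of all 3838 genes were called, and on either side 11.4% of both were. With centring on 1-symbol probes the split of slide type 2 turned, to 21.1% of all genes negative and 30.7% positive, with 12 members on each side. The medians were also near those of all genes, at −0.054 against −0.049 on slide type 2 and at −0.0013 against −0.038 on slide type 1. The group as a whole therefore stood near the background, and what follows concerns the single genes in it.

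**Figure D1:**
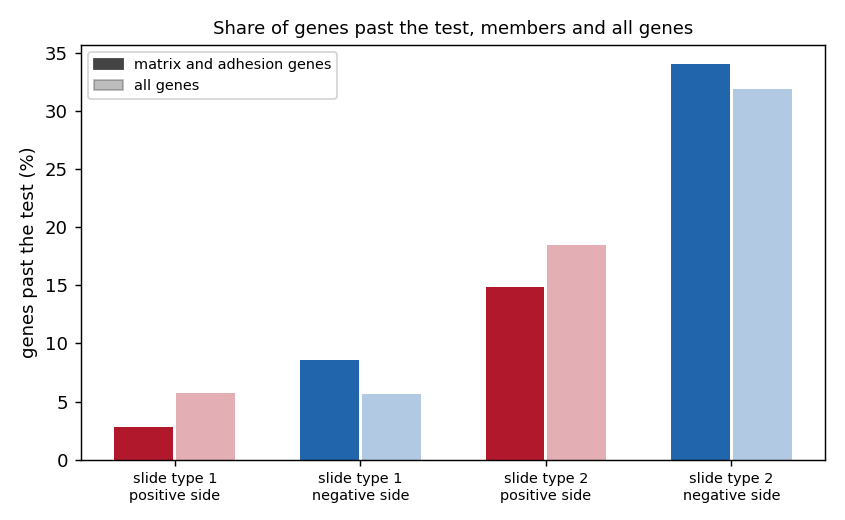
Share of genes past the test on the positive and the negative side of each slide type, in percent, for the matrix and adhesion genes (dark bars) and for all genes (light bars). On slide type 2 the negative side held 34.0% of members and 31.9% of all genes, and the positive side 14.9% and 18.5%.

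The collagen folding and processing enzymes held the most positive member of the set. P3h3, a prolyl 3-hydroxylase family enzyme of the endoplasmic reticulum, and Serpinh1, the collagen chaperone Hsp47, were positive on slide type 2. The promoter windows of both genes are shown because Serpinh1 is known as a heat-inducible chaperone gene, so that its sequence and that of P3h3 can be read beside their values. They are RefSeq windows on GRCm38.p6, from 250 bases before to 50 bases after the start, both from the minus strand, P3h3 at chr6:124857668-124857967 and Serpinh1 at chr7:99353190-99353489. Capitals would mark a match to GAANNTTC or TTCNNGAA, a pair of units of the heat shock element, on either strand, and neither window held one.
P3h3: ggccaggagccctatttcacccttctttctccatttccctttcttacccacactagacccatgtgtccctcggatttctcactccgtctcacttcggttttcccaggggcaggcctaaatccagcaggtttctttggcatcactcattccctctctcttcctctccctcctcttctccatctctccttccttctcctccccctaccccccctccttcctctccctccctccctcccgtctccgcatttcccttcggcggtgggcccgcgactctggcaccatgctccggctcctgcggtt
Serpinh1: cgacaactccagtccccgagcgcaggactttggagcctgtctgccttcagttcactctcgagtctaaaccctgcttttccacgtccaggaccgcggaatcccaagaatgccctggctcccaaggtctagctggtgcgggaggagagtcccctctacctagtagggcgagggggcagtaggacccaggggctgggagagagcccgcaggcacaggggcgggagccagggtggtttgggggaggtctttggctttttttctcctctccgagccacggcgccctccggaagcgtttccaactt
RefSeq windows were matched for 48 of the 76 members, 57 windows in all. Of these, 6 held GAANNTTC or TTCNNGAA (10.5%), against 15.1% of all 32851 windows. None held 3 units in a row (the same letters extended by NNGAA or NNTTC), which 0.603% of all windows did, and which both windows of Hsph1 held. A missing match says only that these letters are not in this window.

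P3h3 stood at 1.34, 1.29 and 1.36 in treatments 1 to 3 on slide type 2, where it has 1 probe. Its 3 treatments lay close together, and it was positive on all 12 arrays, between 0.56 and 2.09. The mean was 1.33 ± 0.037 (SD, n = 3; adjusted p = 2.16e-11 by limma), which is 2.51-fold in base 2 or 3.77-fold in natural log. Serpinh1 stood at 0.15, 0.58 and 0.21, with treatment 2 above the other treatments, and its mean of 0.31 ± 0.23 passed the test (adjusted p = 0.00246 by limma). Its high value in treatment 2 came from its channel 1 arrays (heat-shocked RNA in channel 1), at 1.51 and 1.32, while its channel 2 arrays read −0.21 and −0.31. Without treatment 2, Serpinh1 was at 0.18. The related enzymes P3h1 and P3h2, at 0.026 and 0.015 on slide type 2, did not pass, and neither did the lysyl hydroxylase gene Plod3, at 0.030, and the prolyl 4-hydroxylase subunit gene P4ha2, at −0.013, on slide type 1.

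**Figure D2:**
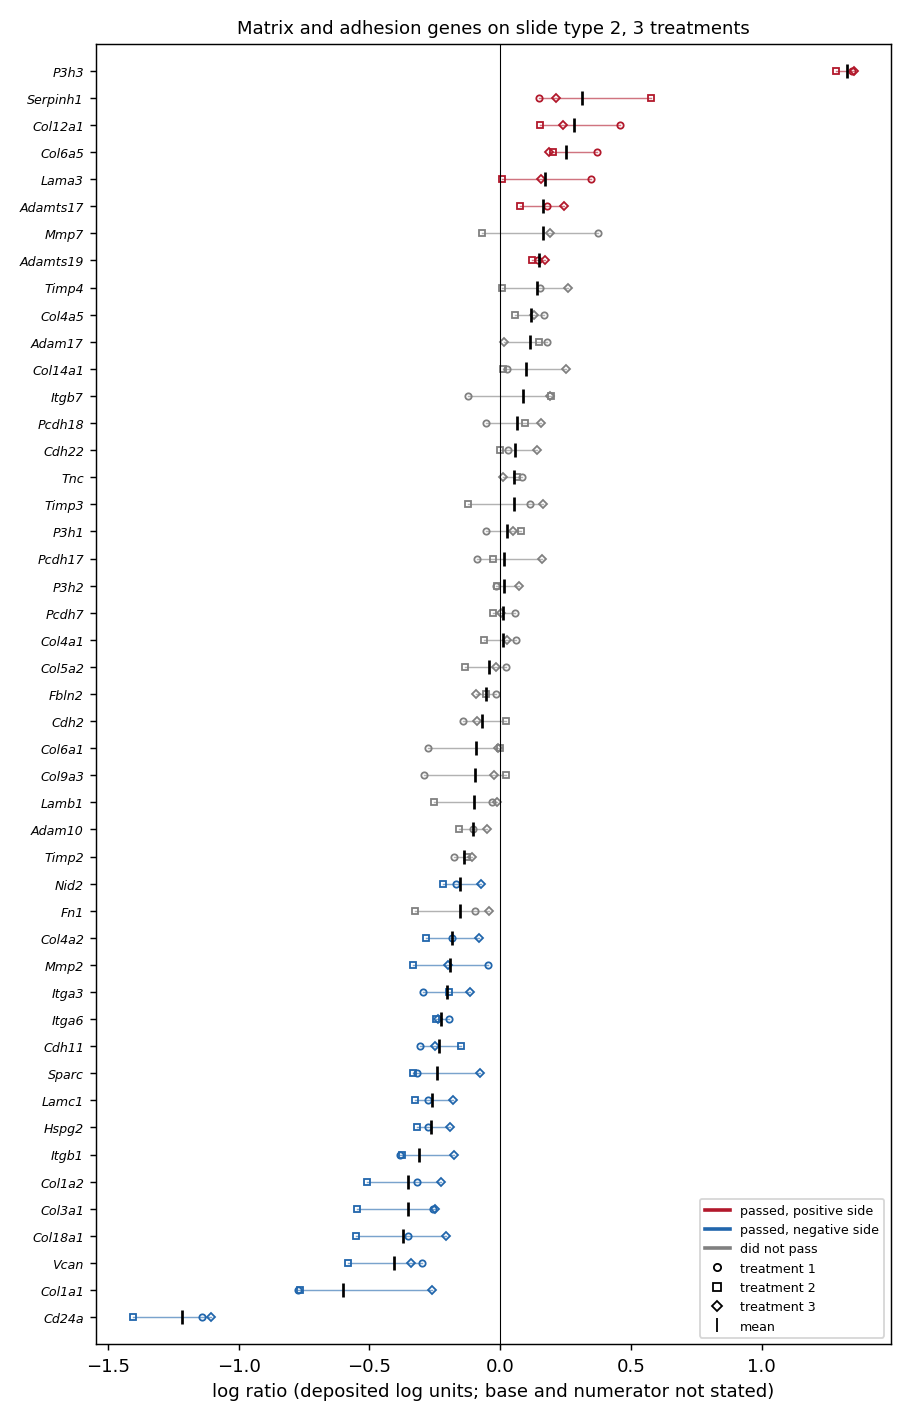
Log ratio of each of the 47 matrix and adhesion genes on slide type 2 (deposited log units, array median at 0) in treatments 1 to 3 (circle, square, diamond), with the mean as a black bar, red for genes past the test on the positive side, blue for the negative side and grey for the others. P3h3 at 1.33 and Cd24a at −1.22 stand far from the other members, which lie between −0.60 and 0.31.

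The collagens of slide type 2 spanned −0.60 to 0.28, with 5 of 13 negative, 2 positive and 6 not past the test. Of all genes there, 31.9% were negative and 18.5% positive, so these counts say little about collagens as a class. The 3 genes of the main fibrillar collagens of connective tissue were all on the negative side. Col1a1, the alpha 1 chain of type I collagen, stood at −0.77, −0.76 and −0.26 in treatments 1 to 3. Treatments 1 and 2 nearly coincided and treatment 3 lay nearer to 0. The mean was −0.60 ± 0.29 (SD, n = 3; adjusted p = 3.02e-05 by limma), or 1.51-fold in base 2. Col1a2, the partner chain of type I collagen, stood at −0.32, −0.51 and −0.22, and Col3a1, the type III chain, at −0.26, −0.55 and −0.25. Both were most negative in treatment 2, with means of −0.35 ± 0.14 and −0.35 ± 0.17 (adjusted p = 0.000372 and 0.00049 by limma). The 4 probes of Col3a1 did not agree, with values from −0.51 to 0.082.

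The 2 type I chains build one protein in a fixed ratio, so their difference was set out by treatment. Col1a1 lay below Col1a2 by 0.45, 0.26 and 0.036 in treatments 1 to 3, a mean difference of −0.25 ± 0.21. The order was the same in each treatment but the gap was small in treatment 3. An exact two-sided sign-flip permutation test gave p = 0.25, the smallest that 3 treatments allow, over a family of 10 such differences in which adjusted values ran from 0.50 to 0.75. In RNA of whole embryos, a change in the number of cells of a type and a change in RNA per cell cannot be told apart. The 2 mesenchyme and neural crest markers measured on slide type 2 were Col1a1 and Pdgfrb, a receptor of mesenchymal cells. Col1a1 is itself one of the collagens at issue, so only Pdgfrb, negative at −0.28, is a marker apart from them. On slide type 1 the 1 such marker measured was at 0.11 and did not pass. The part of mesenchymal cells in the collagen values was not tested.

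Col18a1, the chain of a basement membrane collagen that releases endostatin, stood at −0.35, −0.55 and −0.21, a mean of −0.37 ± 0.17 with both probes alike (adjusted p = 0.000352 by limma). The positive collagens were Col12a1, a fibril-associated collagen, at 0.46, 0.15 and 0.24, and Col6a5, a chain of microfibrillar collagen VI, at 0.37, 0.20 and 0.19. Their means were 0.28 ± 0.16 and 0.25 ± 0.10 (adjusted p = 0.0021 and 0.00265 by limma). Both were negative, at −0.28 and −0.34, on the channel 1 arrays, and positive, at 0.85 and 0.85, on the channel 2 arrays. Neither was called without treatment 1, at 0.20 each, and Col6a5 lost its call with the treatment as a replicate block. Col6a1, another chain of collagen VI, was at −0.094 and did not pass.

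Col4a1 and Col4a2 encode the main chains of the type IV collagen network of basement membranes and lie head to head, transcribed in opposite directions from a shared promoter. Their RefSeq windows on GRCm38.p6, chr8:11312777-11313076 on the minus strand and chr8:11312555-11312854 on the plus strand, have 78 bases in common, on opposite strands, which are in capitals.
Col4a1: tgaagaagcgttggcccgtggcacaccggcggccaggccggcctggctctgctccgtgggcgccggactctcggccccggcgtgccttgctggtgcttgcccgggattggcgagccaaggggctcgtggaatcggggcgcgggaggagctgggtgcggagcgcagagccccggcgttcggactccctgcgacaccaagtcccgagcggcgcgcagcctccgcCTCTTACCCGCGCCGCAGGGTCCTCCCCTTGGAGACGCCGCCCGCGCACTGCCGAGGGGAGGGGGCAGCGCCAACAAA
Col4a2: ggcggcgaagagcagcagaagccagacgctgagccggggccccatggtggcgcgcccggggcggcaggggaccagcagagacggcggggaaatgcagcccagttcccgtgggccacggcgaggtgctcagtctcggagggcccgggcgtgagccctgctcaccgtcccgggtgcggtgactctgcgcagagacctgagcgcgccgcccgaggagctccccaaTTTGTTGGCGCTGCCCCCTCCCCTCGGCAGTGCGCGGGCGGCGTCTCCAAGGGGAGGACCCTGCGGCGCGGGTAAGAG
The values of both genes come from slide type 2. Col4a2 was negative at −0.18, −0.28 and −0.080, a mean of −0.18 ± 0.10 (adjusted p = 0.0187 by limma), and Col4a1 stood at 0.063, −0.060 and 0.028, a mean of 0.0099 ± 0.063 (adjusted p = 0.893). Col4a2 was below Col4a1 in each treatment, by 0.19 ± 0.074 on average (exact sign-flip permutation p = 0.25, the smallest possible). Col4a2 lost its call without treatment 1 or 2, at −0.18 and −0.13. The 3 probes of Col4a1 ran from −0.10 to 0.23, a spread wider than this difference. On the channel 1 arrays Col4a2 was at 0.14 and Col4a1 at 0.20, and on the channel 2 arrays they were at −0.51 and −0.18. The other collagens that did not pass were Col4a5, Col5a2, Col9a3 and Col14a1 on slide type 2, and the cartilage collagen gene Col2a1, at −0.18 (adjusted p = 0.127), and Col22a1, at −0.14, on slide type 1.

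Among basement membrane genes, 3 of 5 on slide type 2 were negative, 1 was positive, and none of 5 on slide type 1 passed by limma, nor reached an unadjusted p under 0.05. Of all genes, 31.9% were negative and 18.5% positive on slide type 2, and 11.4% passed on slide type 1. Hspg2, the proteoglycan perlecan, stood at −0.28, −0.32 and −0.19, a mean of −0.26 ± 0.064 (adjusted p = 0.00167 by limma). Lamc1, the gamma 1 chain found in most laminins, stood at −0.27, −0.33 and −0.18, a mean of −0.26 ± 0.075 (adjusted p = 0.00191). Nid2, which links laminin to collagen IV, was at −0.15 ± 0.076 (adjusted p = 0.037). In Hspg2 and Lamc1 the treatment means kept close together, but the channel orders did not. Hspg2 was at −0.036 on the channel 1 arrays and at −0.49 on the channel 2 arrays, and Lamc1 at −0.034 and −0.49. Lamb1, the beta 1 chain that pairs with Lamc1, was at −0.099 ± 0.13 and did not pass. Lama3, the alpha chain of epidermal laminin, was positive at 0.35, 0.0068 and 0.16, a mean of 0.17 ± 0.17 (adjusted p = 0.0404). Lama3 was not called without treatment 1 (0.082) or 3 (0.18) or with the replicate block, and Nid2 was not called when any 1 treatment was left out (−0.19 to −0.12). Lama1 was at 0.051 ± 0.12, Lama5 at −0.028 and Nid1 at 0.087 ± 0.061 on slide type 1, where Nid1 was called on the channel 1 arrays alone (0.20).

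Of the 5 matrix glycoproteins on slide type 2, 2 were negative, beside 31.9% of all genes. Vcan, the large hyaluronan-binding proteoglycan versican of embryonic matrix, stood at −0.30, −0.58 and −0.34, a mean of −0.41 ± 0.15 (adjusted p = 0.000119 by limma). Sparc, a secreted collagen-binding protein, stood at −0.32, −0.33 and −0.077, a mean of −0.24 ± 0.14 (adjusted p = 0.00519). As with Col1a1, treatment 3 of Sparc lay nearest to 0, and Sparc lost its call without treatment 1, at −0.20. Fn1, fibronectin, stood at −0.095, −0.32 and −0.043, and its mean of −0.15 ± 0.15 missed the threshold (adjusted p = 0.0537). It passed on arrays without the suffix, at −0.21 (adjusted p = 0.0356), and was at −0.069 without treatment 2. Tnc, tenascin C, at 0.053 ± 0.036, and Fbln2, fibulin 2, at −0.054, did not pass.

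Of the metalloprotease family, 3 of 6 genes were called on slide type 2, and slide type 1 had 1 of 11 called. Of all genes, 50.4% and 11.4% were called on either side of these slide types. On slide type 2, Mmp2, the secreted gelatinase, was negative at −0.047, −0.33 and −0.20, a mean of −0.19 ± 0.14 (adjusted p = 0.0188 by limma). Adamts17 and Adamts19, secreted proteases of the same family, were positive at 0.17 ± 0.085 and 0.15 ± 0.024 (adjusted p = 0.0272 and 0.0384). Mmp2 was not called without treatment 2 (−0.12) or 3 (−0.19), nor were Adamts17 (0.16 and 0.13) and Adamts19 (0.15 and 0.14) without treatment 1 or 3, and Adamts19 lost its call with the replicate block. The membrane-bound sheddases Adam10, with 2 probes at −0.39 and 0.19, and Adam17, at 0.11, did not pass, nor did the matrix metalloprotease Mmp7, whose treatments ran from −0.068 to 0.37. Adam15, a membrane-bound disintegrin protease, was the positive member of slide type 1, at 0.32, 0.37 and 0.27 in treatments 1 to 3. Its mean was 0.32 ± 0.047 (adjusted p = 0.00476), and the call was lost without treatment 1, at 0.32, and on the channel 2 arrays alone, at 0.061. The other 10 genes of the family on slide type 1 (Adam8, Adam19, Adamts1, Adamts4, Adamts9, Adamts10, Adamts12, Adamtsl1, Mmp23 and Adamts17, of which Adamtsl1 encodes a related matrix protein that is no protease) lay between −0.16 and 0.20 and did not pass. Their inhibitors Timp2, at −0.14 ± 0.036 (adjusted p = 0.0537), Timp3, at 0.052 ± 0.15, and Timp4, at 0.14 ± 0.13, did not pass on slide type 2. Timp2 was called with the replicate block (adjusted p = 0.021), without treatment 2 (−0.14, adjusted p = 0.049) and on arrays without the suffix (−0.27, adjusted p = 0.0059), and it read 0.0005 on those with it. Timp3 was called without treatment 2, at 0.14 (adjusted p = 0.0498).

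Integrin genes were negative where they were called. Slide type 2 held 4 integrins and 3 were negative, beside 31.9% of all its genes. Among the 4 integrins of slide type 1 only 1 was negative, beside 5.65% of all genes there. Counts this small say little about integrins as a class. Itgb1, the beta 1 chain shared by most matrix-binding integrins, stood at −0.38, −0.37 and −0.18 on slide type 2, a mean of −0.31 ± 0.12 (adjusted p = 0.000706 by limma). Itga6 and Itga3, alpha chains of laminin receptors that pair with it, were at −0.23 ± 0.028 and −0.20 ± 0.092 (adjusted p = 0.00386 and 0.0105), and Itga3 lost its call without treatment 1, at −0.15. Itga6 differed little between treatment means, but it was at −0.049 on the channel 1 arrays and at −0.40 on the channel 2 arrays. It exceeded Itgb1 by 0.084 ± 0.13, a difference within its own spread (exact sign-flip permutation p = 0.50). Itgb7, a leukocyte integrin chain at 0.087, did not pass. Itgb5, the beta chain of a vitronectin receptor, was negative on slide type 1 at −0.23, −0.12 and −0.43, a mean of −0.26 ± 0.15 (adjusted p = 0.0347) that was not called without treatment 1 (−0.27) or 3 (−0.18). Itga5, the alpha chain of the fibronectin receptor, stood at 0.16, 0.37 and 0.0030, and Itga9, Itgb4 and Itgb3bp, a nuclear protein that binds an integrin tail and is no integrin itself, lay between −0.0013 and 0.090; none of these passed. Itga5 was at 0.084 without treatment 2 and was called without treatment 3 (0.27, adjusted p = 0.0478), on the channel 1 arrays alone (0.33) and without centring (0.48).

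Itgb5 was the only called member among the 6 whose promoter window held a pair of heat shock element units. The others were Adamts9, Col4a5, Itga5, Mmp7 and P4ha2. Of all genes, 11.4% were called on slide type 1 and 50.4% on slide type 2. The call of Itgb5 was kept in 8 of the 15 other settings, and a link between match and call was not tested. The window of Itgb5 (GRCm38.p6, chr16:33829415-33829714, plus strand) is shown with the match in capitals, which begins 155 bases before the start.
Itgb5: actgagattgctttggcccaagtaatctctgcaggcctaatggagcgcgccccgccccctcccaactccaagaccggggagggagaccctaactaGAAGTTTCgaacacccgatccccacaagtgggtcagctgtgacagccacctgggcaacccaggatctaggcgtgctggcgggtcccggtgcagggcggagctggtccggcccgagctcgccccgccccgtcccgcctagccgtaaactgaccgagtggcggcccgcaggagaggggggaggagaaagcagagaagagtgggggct

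Cadherins and their relatives mostly did not pass, with 1 called among the 6 genes of slide type 2. Slide type 1 had 1 called among 7. The share of all genes called on either side was 50.4% for the former and 11.4% for the latter. Whether cadherins differed from all genes was not tested. On slide type 2, Cdh11, the cadherin of mesenchyme, was negative at −0.31, −0.15 and −0.25, a mean of −0.24 ± 0.079 (adjusted p = 0.00376 by limma), with the call lost without treatment 1, at −0.20. Cdh2, neural cadherin, was at −0.069, and Cdh22, Pcdh7, Pcdh17 and Pcdh18 lay between 0.010 and 0.065. Cdh3, placental cadherin, was negative on slide type 1 at −0.28, −0.23 and −0.26, a mean of −0.25 ± 0.025 (adjusted p = 0.0142), and it was negative on all 12 arrays, with its call lost without treatment 1, at −0.24. Cdh1, epithelial cadherin, at −0.079 ± 0.047, and Cdh5, the cadherin of endothelium, at 0.048 ± 0.018, did not pass, and Cdh18, Pcdh7, Pcdh9 and Pcdhgc4 lay between −0.020 and 0.046.

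Cd24a, a small, heavily glycosylated surface protein held by a lipid anchor, was the most negative member. It stood at −1.14, −1.41 and −1.11 in treatments 1 to 3 and was negative on all 12 arrays, between −2.17 and −0.59. Its 2 probes read −1.22 and −1.21. The mean was −1.22 ± 0.16 (adjusted p = 4.25e-10 by limma), or 2.32-fold in base 2 and 3.38-fold in natural log. Esam, an adhesion molecule of endothelial junctions, was negative on slide type 1 at −0.13, −0.43 and −0.25, a mean of −0.27 ± 0.15 (adjusted p = 0.0287) that was called neither with the replicate block nor without any 1 of the treatments (−0.34 to −0.19). In treatment 2 its channel 2 arrays read 0.68 and −1.60, and its mean was −0.12 on arrays without the suffix in their slide code (adjusted p = 0.461) and −0.42 on those with it. Of the endothelial markers on that slide type only Esam and Cdh5 were measured, and Cdh5 did not pass.

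**Figure D3:**
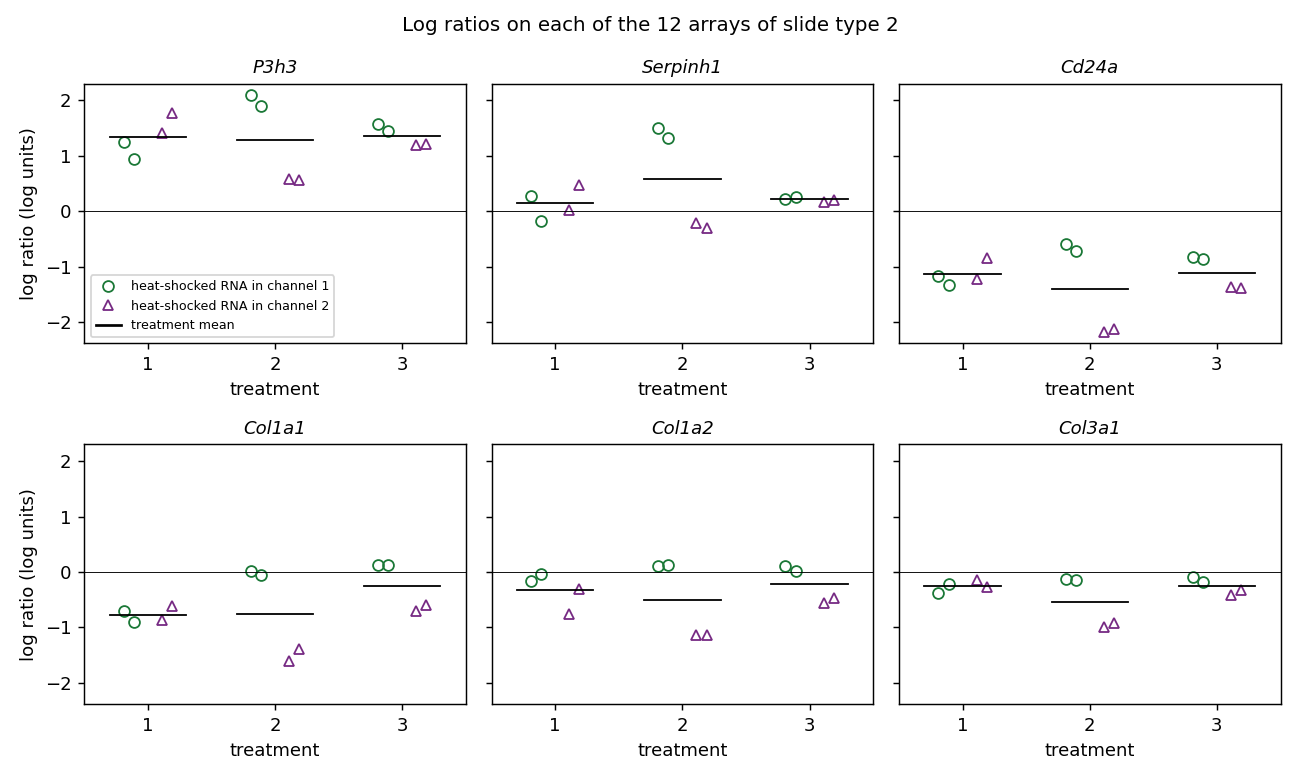
Log ratio on each of the 12 arrays of slide type 2 for P3h3, Serpinh1, Cd24a, Col1a1, Col1a2 and Col3a1, by treatment; circles have heat-shocked RNA in channel 1, triangles in channel 2, and black lines are treatment means. P3h3 and Cd24a keep their side on every array, whereas Col1a1 of treatment 2 runs from −1.61 to 0.017.

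The channel that held the heat-shocked RNA moved many of these values. Col1a1 was at −0.24 on the channel 1 arrays and at −0.96 on the channel 2 arrays. In treatment 2 its arrays read 0.017 and −0.060 in the one order and −1.61 and −1.40 in the other. Of the 16 negative members of slide type 2, 12 were negative in both channel orders (75.0%), as were 70.6% of all genes called negative, and Col1a2, Col4a2, Mmp2 and Nid2 were not. Among those 12, Lamc1, Hspg2, Sparc, Itga6 and Col18a1 were only slightly negative on the channel 1 arrays, between −0.087 and −0.034. Itga3 was only slightly negative on the channel 2 arrays, at −0.051, against −0.35 on the channel 1 arrays. Of the 7 positive members only P3h3 and Serpinh1 were positive in both orders (28.6%), against 46.9% of all genes called positive. Serpinh1 was near 0 on the channel 2 arrays, at 0.059, against 0.57 on the channel 1 arrays. Among the rest, Lama3 was at −0.14 in the one order and at 0.48 in the other, and Adamts19 at −0.25 and 0.55. On slide type 1 the means of all 4 called members were on one side in both orders, as were 98.2% of all called genes on each side. For Esam this rested on 1 array, since its channel 2 mean of −0.21 holds that array at −1.60 and the other 5 lay between −0.37 and 0.68. Adam15 was at 0.58 on the channel 1 arrays and at 0.061 on the channel 2 arrays, where it was not called (adjusted p = 0.597 by limma). In either channel order alone, Cd24a was the one member of slide type 2 called both times, P3h3 was called with channel 1 only, and the other called members of that slide type lost their calls or changed side. Without centring only P3h3, Cd24a and Col1a1 of slide type 2 were called. P3h3, Cd24a and Col3a1 on slide type 2 and Cdh3 on slide type 1 were the called members with all 12 arrays on one side.

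**Figure D4:**
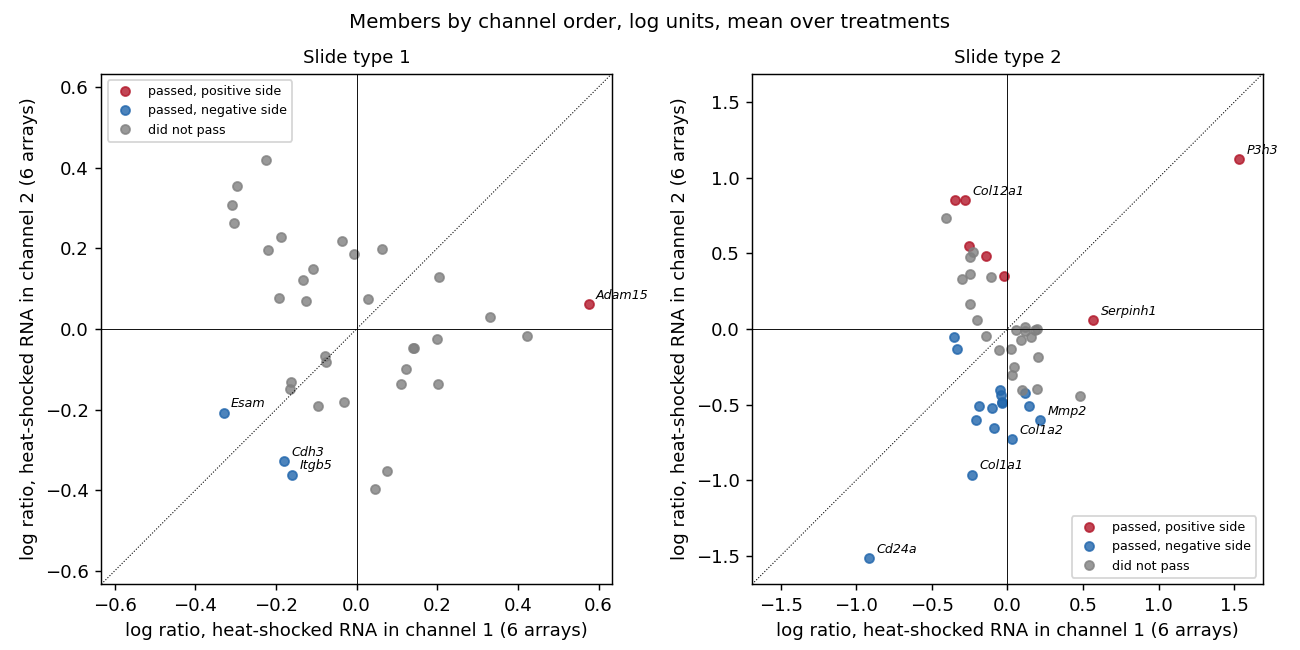
Mean log ratio over the 6 channel 1 arrays (horizontal axis) and over the 6 channel 2 arrays (vertical axis) for each member, 1 panel per slide type, colours by test result. Points at the lower left and upper right keep their side, as Cd24a (−0.92 and −1.52) and P3h3 (1.53 and 1.12) do, while Col12a1 (−0.28 and 0.85) does not.

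Slide type 1 had few called members, and 31 of its 35 lay between −0.18 and 0.20 without passing. The share called on either side was 11.4% both for members and for all genes. The median SD between treatments over members was 0.078 there and 0.10 on slide type 2, and why fewer genes were called there was not tested. All 4 calls of slide type 1 were lost when treatment 1 was left out.

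**Figure D5:**
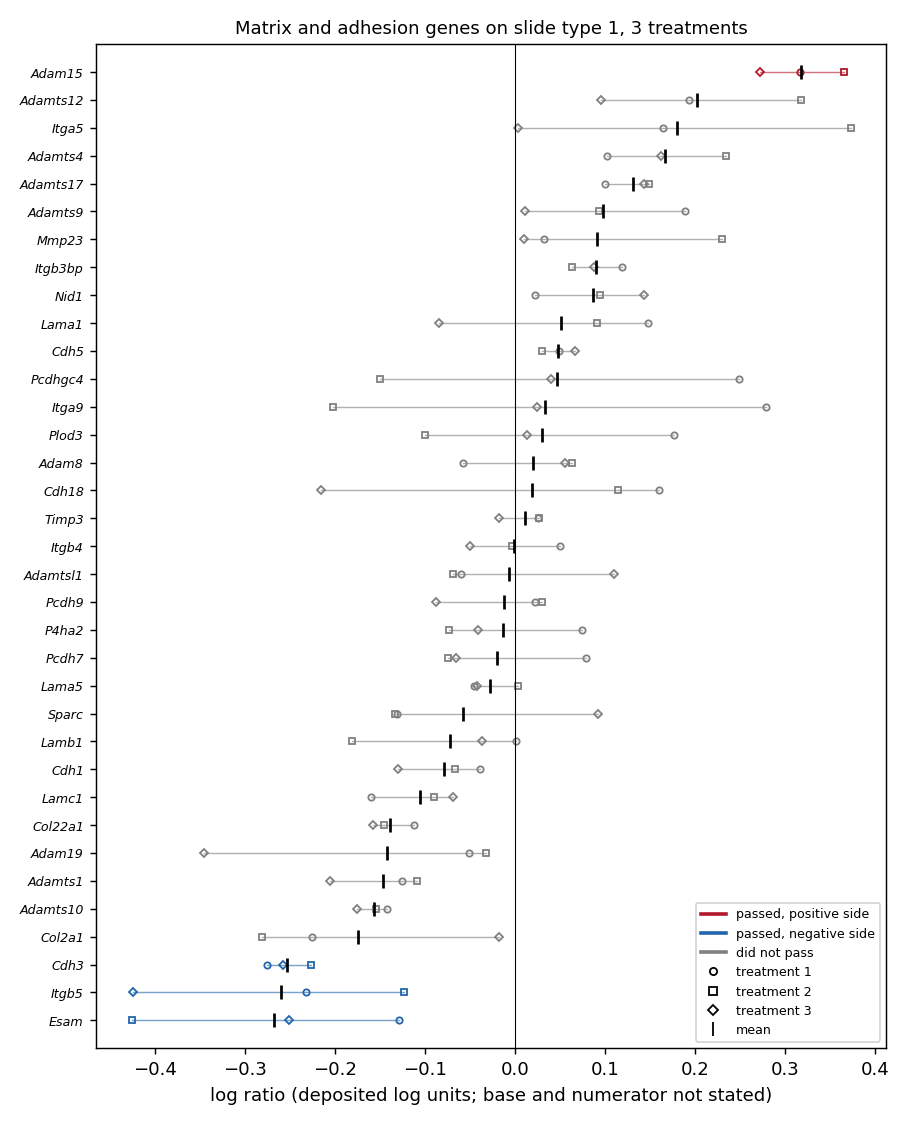
Log ratio of each of the 35 matrix and adhesion genes on slide type 1 (deposited log units, array median at 0) in treatments 1 to 3 (circle, square, diamond), with the mean as a black bar, red for the positive side, blue for the negative side and grey for genes not past the test. Adam15 at 0.32 and Esam, Itgb5 and Cdh3 near −0.26 are the coloured genes.

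The 6 genes on both slide types were measured by different probes from the same treatments. Lamc1 stood at −0.16, −0.090 and −0.069 on slide type 1, a mean of −0.11 ± 0.048 that did not pass (adjusted p = 0.281 by limma). Sparc stood at −0.13, −0.13 and 0.092 there, a mean of −0.058 ± 0.13. Both were more negative on slide type 2 in each treatment, with mean differences (slide type 2 minus 1) of −0.18 ± 0.014 for Sparc and −0.15 ± 0.071 for Lamc1 (exact sign-flip permutation p = 0.25 each), and treatment 3 of Sparc lay on opposite sides of 0. Adamts17 was at 0.13 ± 0.027 on slide type 1 and at 0.17 on slide type 2, past the test only on the latter, with a difference of 0.035 that lay within the spread between treatments. Lamb1, Pcdh7 and Timp3, at −0.072, −0.020 and 0.011 on slide type 1, passed on neither.

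Genes of the same biology outside the symbol rule were counted from a list of 176 symbols. On slide type 2, 18 of 40 measured were negative and 2 positive (45.0% and 5.0%, against 31.9% and 18.5% of all genes), with a median of −0.13. The most negative were Gja1, a gap junction protein, at −0.80 ± 0.069, Emilin1, an elastic fibre glycoprotein, at −0.64 ± 0.075, and the heparan sulfate proteoglycans Gpc1 and Agrn, at −0.51 ± 0.067 and −0.48 ± 0.13 (adjusted p from 2.36e-08 to 1.63e-05 by limma). P4hb, the beta subunit of prolyl 4-hydroxylase, was negative at −0.21 ± 0.12 (adjusted p = 0.00914). The positive ones were Matn2, a matrilin, at 0.27 ± 0.13 and Ctnnd1, a catenin bound to cadherins, at 0.20 ± 0.12. Matn2 was at −0.21 on the channel 1 arrays and at 0.74 on the channel 2 arrays, and P4hb at 0.13 and −0.56. In the same orders, Gja1 was at −0.45 and −1.15 and Emilin1 at −0.52 and −0.77. Gpc1 was at −0.11 and −0.90, and Agrn at −0.16 and −0.81. On slide type 1, 2 of 30 were negative, Sdc1, a syndecan, at −0.29 ± 0.043 (2 probes at −0.50 and −0.074) and Cldn6, a claudin of tight junctions, at −0.25 ± 0.12, with none positive by limma and 0 at an unadjusted p under 0.05. Ctnnd1 stood at −0.11 there and did not pass.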

How the data were processed

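The deposited values are log ratios, 1 per probe and array, in 1 table per slide type, and were read as a score. The sources used here do not give how the authors made this score: its log base, numerator, background correction and normalization are not stated. Each table held 7680 probes and 12 arrays. Spot intensities were not analysed here, and dim or saturated spots stayed in. Symbols came from the platform annotation.

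Each ratio was turned to heat-shocked over control by the labels' source names and centred on the array median. Per treatment, its 4 arrays of a slide type were averaged with equal weight for each channel order, which left 3 treatments as replicates. A gene's value is the mean of its probes. limma 3.58.1 in R 4.3.3 (lmFit, eBayes) tested each slide type, adjusted at 0.05 over all its genes. The test was checked on simulated data. Differences between genes used an exact sign-flip permutation test. Figures were drawn with matplotlib 3.10.9.

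Members, lists and tests were chosen with earlier results of these data known. Genes were named by a rule of up to 5 called members per role and side with the smallest p, those on both slide types, and a list of symbols; other members are given by counts, ranges or values chosen after they were seen. The alternatives were no centring, other centring, 1 channel order, 1 kind of array, other probe rules and priors, and each treatment left out. The treatment number as a random block over 12 arrays had an estimated correlation of −0.05 on slide type 1 and −0.24 on slide type 2.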

Additional observations from a re-analysis of the deposited data

How the results depend on the processing

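Of the 15 other settings, Cd24a kept its call in all 15, P3h3 in 14 (lost with heat-shocked RNA in channel 2 only, at 1.12, adjusted p = 0.0512 by limma), and Col1a1 and Adam15 in 13. On slide type 2 the main counts of 7 positive and 16 negative members became 1 and 2 without centring, 12 and 12 with centring on 1-symbol probes, 1 and 1 with channel 1 only, 0 and 1 with channel 2 only (limma, 6 positive at an unadjusted p under 0.05), and 4 positive with suffix arrays only. Over all genes, 18.5% positive and 31.9% negative became 1.87% and 1.60% without centring, 30.7% and 21.1% with 1-symbol centring, 1.08% and 0.147% with channel 1 only and 0.319% and 0.270% with channel 2 only. With the treatment as a random replicate block over 12 arrays, 4 were positive and 17 negative. Over all genes the block gave 15.9% positive and 35.3% negative, and suffix arrays only gave 14.2% positive. Leaving out 1 treatment gave 2 to 11 positive (2 without treatment 1, 11 without treatment 2, 4 without treatment 3) and 11 to 14 negative. Of all genes, 7.19%, 24.1% and 9.33% were then positive and 22.9%, 30.1% and 25.8% negative, in the same order. On slide type 1 the main counts of 1 positive and 3 negative became 3 and 0 without centring (0 negative also at an unadjusted p under 0.05), 3 and 1 with centring on 1-symbol probes, 5 positive with channel 1 only, 0 and 0 with channel 2 only (5 and 4 unadjusted), 2 positive without the suffix, 1 negative with it, 2 positive with the replicate block and 3 with the block and channel order as a term, an alternative chosen after seeing the data. Leaving out 1 treatment gave 0 to 3 positive and 0 to 2 negative; without treatment 1 both were 0 (3 and 3 unadjusted). Over all genes of slide type 1, 5.73% positive and 5.65% negative became 6.85% and 0.130% without centring, 6.62% and 3.10% with 1-symbol centring, 10.6% and 11.2% with channel 1 only, and 3.26% and 1.38% without treatment 1. Channel 2 only gave 1.8% and 3.26%, leaving out treatment 2 gave 4.4% and 3.6%, and leaving out treatment 3 gave 5.08% and 6.38%. Positive genes were 5.03% without the suffix, 7.24% with the replicate block and 7.53% with channel order added. Negative genes were 1.95% with the suffix. Without centring the median of all genes on slide type 1 moved from −0.038 to 0.27, and Cdh3, Esam and Itgb5 changed side, to 0.050, 0.035 and 0.044. With channel 1 only on slide type 2, Adamts17, Adamts19, Col12a1, Col6a5 and Lama3 changed side to −0.020, −0.25, −0.28, −0.34 and −0.14, and Col1a2, Col4a2, Mmp2 and Nid2 to 0.030, 0.14, 0.22 and 0.12. A single channel order also leaves fewer arrays, and why calls and sides changed with it was not tested. Signal over background was not used here, so what it limits is unknown.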

Other observations

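Markers of other cell types were measured on few probes. On slide type 1 the neural marker Tubb3 was negative at −0.21, 1 of 2 neural markers measured, and the 4 markers of yolk sac endoderm lay between −0.067 and 0.039 and did not pass. The 3 erythroid markers on slide type 2 lay between −0.14 and 0.088 and did not pass. No heart muscle marker was measured on either slide type.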
